A study of Homo sapiens with 4 samples.

Results

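SLC44A1, the choline transporter-like protein CTL1, and 9 further genes of choline uptake and phosphatidylcholine synthesis were examined in MDA-MB-468 cells, a human breast cancer cell line with the p53-R273H mutation. The 10 genes are the transporters SLC44A1, SLC44A2, SLC44A3, SLC44A4, SLC44A5 and SLC5A7, the kinase CHKA and the CDP-choline-forming enzyme PCYT1A, and the phosphotransferases CHPT1 and CEPT1. All 10 were measured, among 18417 genes that could be named on the arrays. The set was chosen by the measured difference of SLC44A1 between the 2 groups of arrays, and the other 9 genes were added for their function. For this reason the differences of these 10 genes are given as a description with their errors, and the number of them called is set only beside that over all genes. Affymetrix Human Gene 1.0 ST arrays had been hybridized with total RNA from cells carrying a lentiviral non-targeting shRNA (NS, n = 2 arrays) or the p53-directed lentiviral shRNA p53si-1 (n = 2 arrays). Both groups were the same line in the same medium, and both had been transduced with lentivirus. The time after transduction is not in the labels, and the study's methods and results give different times. Knockdown on these arrays rests on 1 shRNA sequence in 1 cell line, and the p53 transcript is not analysed here.

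Choline is a charged nutrient that cannot cross membranes freely and has to be carried into cells. Inside the cell it is phosphorylated by choline kinase, activated to CDP-choline, and joined to diacylglycerol to give phosphatidylcholine, the main phospholipid of most mammalian membranes. This route is known as the Kennedy pathway. Raised choline kinase activity and raised phosphocholine are long-known features of breast cancer cells. SLC44A1 is widely expressed and carries choline across the plasma membrane, whereas SLC5A7 is the high-affinity transporter of cholinergic neurons.

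SLC44A1 lies on chromosome 9 (GRCh38.p14, chr9:105244651-105438504). The RefSeq promoter table held windows for 9 of the 10 genes, 13 windows in all, and the 250 bases before each annotated start were read. The windows of SLC44A1 and of SLC44A5 are printed because SLC44A1 is the gene with the large difference and SLC44A5 has the window poorest in G and C among the 13. Capitals mark matches to the GC box GGGCGG on either strand. The SLC44A1 window is chr9:105244401-105244650 on the plus strand, and the SLC44A5 window is chr1:75611115-75611364 on the minus strand, which is inside the annotated span of that gene.
SLC44A1: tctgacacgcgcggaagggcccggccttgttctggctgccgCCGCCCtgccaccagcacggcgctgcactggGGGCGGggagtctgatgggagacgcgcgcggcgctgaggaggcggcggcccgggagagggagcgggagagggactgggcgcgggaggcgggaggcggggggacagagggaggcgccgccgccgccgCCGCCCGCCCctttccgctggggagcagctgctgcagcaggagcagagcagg
SLC44A5: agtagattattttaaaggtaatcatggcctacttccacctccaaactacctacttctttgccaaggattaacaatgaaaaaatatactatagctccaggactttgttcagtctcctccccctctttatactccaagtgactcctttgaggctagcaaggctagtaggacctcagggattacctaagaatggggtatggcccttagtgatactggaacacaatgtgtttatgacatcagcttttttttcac
The SLC44A1 window was 77.6% G and C, held 30 CpG dinucleotides, and had 4 GC box matches, of which the last pair overlap each other. The SLC44A5 window was 40.8% G and C and held 0 CpG and 0 GC boxes. Over all 35116 windows the medians were 58.0% G and C and 11 CpG. A GC box was in 42.6% of all windows and in 8 of the 13 windows of these genes. TATAAA, on either strand, was in 10.7% of all windows and in 4 of the 13, those of SLC44A3 (1 of its 2), SLC44A4 (1 of its 2), SLC44A5 and SLC5A7. The window of CHPT1 (28 CpG) and the first windows of SLC44A3 (35 CpG) and CEPT1 (27 CpG) were close to or above SLC44A1 in CpG number. These are descriptions of sequence, and no binding was measured.

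SLC44A1 was lower with p53si-1. NS replicates 1 and 2 gave log2 signals of 8.73 and 8.88, and p53si-1 replicates 1 and 2 gave 7.86 and 7.88. Both p53si-1 arrays lay well below both NS arrays, and the groups did not overlap. The group means were 8.81 ± 0.11 (SD, n = 2) for NS and 7.87 ± 0.02 (SD, n = 2) for p53si-1. The difference was -0.94 on the log2 scale (standard error 0.09, 95% interval -1.16 to -0.72), a 1.92-fold lower signal. Taken pair by pair, an array with p53si-1 was lower than an array with NS by between -0.85 and -1.03 on the log2 scale. The replicates of 1 group differed by 0.15 (NS) and 0.02 (p53si-1). The gene was chosen for its difference, so these gaps lend that difference no separate support. SLC44A1 ranked as number 16 from the most lowered of all 18417 genes. The signal comes from bulk RNA, in which fewer cells carrying the transcript and less of it per cell cannot be told apart.

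**Figure D1:**
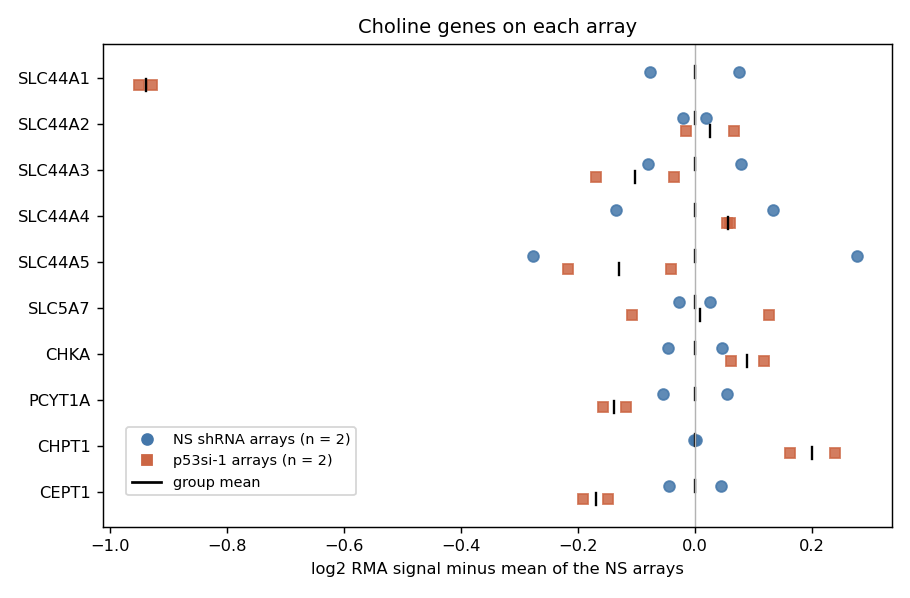
Log2 RMA signal of each array relative to the NS mean (x axis) for the 10 choline genes (y axis). Circles are the 2 NS arrays, squares the 2 p53si-1 arrays and bars the group means. The p53si-1 arrays of SLC44A1 stand near -0.94, and all other points lie within 0.3 of 0.

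Of the 10 genes, 1 was called at an adjusted p under 0.05 from limma over all genes, namely SLC44A1, against 0.109% of all genes. The same gene was the only 1 of the 10 to differ by over 1.5-fold, against 0.923% of all genes. Since this contrast chose the set, nothing is read from these counts. The call did not hold with any 1 array left out. A group then held a single array, and hardly any of all genes were called. The difference of SLC44A1 ran from -1.01 to -0.86 in these fits. The call was also lost with every transcript cluster taken as its own feature (0 of 10 called). The groups did not overlap for 5 of the 10 genes, namely SLC44A1, CHKA, PCYT1A, CHPT1 and CEPT1, against 42.5% of all genes.

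The other SLC44 transporters did not show a difference of this size. SLC44A2, a choline transporter-like protein that also carries a neutrophil antigen, was at 12.73 and 12.69 with NS and at 12.78 and 12.70 with p53si-1. Its arrays overlapped, and the difference was 0.03 on the log2 scale (95% interval -0.18 to 0.23). The sign of this small difference turned under quantile normalization and without p53si-1 replicate 1. SLC44A3 was at 8.34 and 8.18 with NS and at 8.22 and 8.09 with p53si-1. These arrays overlapped as well, with a difference of -0.10 (95% interval -0.34 to 0.14), which was -0.02 without NS replicate 1, -0.18 without NS replicate 2, -0.17 without p53si-1 replicate 1 and -0.04 without p53si-1 replicate 2. The intervals of both genes lay above that of SLC44A1, whose upper end was -0.72. SLC44A1 was chosen for its large difference, so this is a description and not a test.

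SLC44A4, which is known as a thiamine pyrophosphate transporter of the colon, was dim. Its log2 signal was 5.11 and 5.38 with NS and 5.30 and 5.31 with p53si-1, so both p53si-1 arrays fell between the NS arrays (difference 0.06, 95% interval -0.21 to 0.32). The annotation names 3 transcript clusters for SLC44A4, and their deposited values were identical on every array, so they count as 1 measurement. SLC44A5 was dimmer still, at 3.92 and 3.37 with NS and 3.43 and 3.60 with p53si-1. Its NS replicates were 0.55 apart, the widest gap among the 10 genes, and the interval of its difference was correspondingly wide (-0.13, 95% interval -0.57 to 0.32). SLC5A7, the neuronal high-affinity choline transporter, was at 3.62 and 3.67 with NS and 3.77 and 3.54 with p53si-1, a difference of 0.01 (95% interval -0.24 to 0.26). The differences of SLC44A4, SLC44A5 and SLC5A7 each changed sign when NS replicate 1 was left out, and that of SLC5A7 also without p53si-1 replicate 1.

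Probes of different genes bind with different strength, so the signals do not rank the transcripts by abundance, and are given only to show which genes were bright or dim. By mean signal over the 4 arrays SLC44A2 stood at percentile 99.8 of all genes, CHKA at 93.8, CEPT1 at 93.4 and CHPT1 at 85.4. SLC44A1, SLC44A3 and PCYT1A followed at percentiles 76.4, 74.7 and 69.7, and SLC44A4 at 32.6. SLC5A7 and SLC44A5 stood at percentiles 9.81 and 8.77. The leukocyte genes PTPRC and CD3E, which an epithelial line should lack, were in the same range, at percentiles 2.47 and 10.9, whereas CD14, the third leukocyte gene measured, stood at 92.1.

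The enzymes of the CDP-choline route differed little. CHKA, which phosphorylates choline, was at 10.04 and 9.95 with NS and at 10.11 and 10.05 with p53si-1. The p53si-1 arrays were the higher ones, by a margin of only 0.02 between the nearest arrays, and the difference was 0.09 (95% interval -0.12 to 0.30), or 0.04 to 0.14 with 1 NS array left out. PCYT1A, the enzyme that forms CDP-choline and usually limits the rate of the route, was at 7.99 and 7.88 with NS and at 7.82 and 7.78 with p53si-1. Both p53si-1 arrays were lower, with a difference of -0.14 (95% interval -0.35 to 0.07), or -0.19 to -0.08 with 1 NS array left out.

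The phosphotransferases of the last step differed in opposite directions. CHPT1, which uses CDP-choline, was at 8.93 on both NS arrays and at 9.09 and 9.17 with p53si-1. Its difference was 0.20 on the log2 scale, or 1.15-fold higher (95% interval 0.0019 to 0.40). CEPT1, which accepts CDP-choline and CDP-ethanolamine alike, was at 10.08 and 9.99 with NS and at 9.85 and 9.89 with p53si-1. Its difference was -0.17, or 1.12-fold lower (95% interval -0.37 to 0.03). The groups did not overlap for either gene, and neither was called over all genes. The log2 signal of CHPT1 minus that of CEPT1 within an array was -1.15 and -1.06 with NS and -0.75 and -0.72 with p53si-1, a shift of 0.37 between the group means. This ratio was chosen after its values were seen and was not tested. Among the 9 genes other than SLC44A1 the differences ran from -0.17 to 0.20, with a median of 0.01, beside a median of -0.01 over all genes. The signs for SLC44A3, CHKA, PCYT1A, CHPT1 and CEPT1 were kept under quantile normalization, under median centring and without each array in turn.

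**Figure D2:**
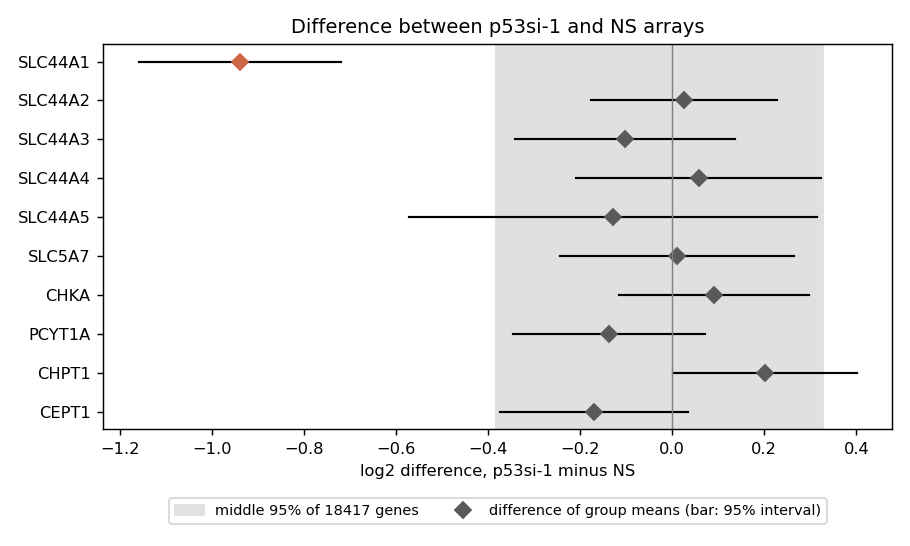
Difference of the group means, p53si-1 minus NS, on the log2 scale (x axis) for the 10 choline genes (y axis), with 95% intervals from limma. The grey band holds the middle 95% of all 18417 genes (-0.38 to 0.33), and SLC44A1 at -0.94 is the gene outside it.

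A wider set of 53 choline and phospholipid genes was sorted into 8 lists by function, and 46 of them were measured. At an adjusted p under 0.05 from limma over all genes, 0 of the 46 rose and 0 fell, beside 0.109% of all genes called. By over 1.5-fold, 0 of the 46 differed, beside 0.923% of all genes. At shares this small, counts of 0 among 46 genes say little about these lists. At an unadjusted p under 0.05, 8 were lower and 0 were higher, which is 17.4% of the 46 beside 12.3% of all genes. Of all genes, 1253 were lower and 1004 higher at this threshold. The mean was lower with p53si-1 for 34 of the 46 (73.9%), beside 52.6% of all genes. The median difference was -0.08, beside -0.01 over all genes. The count with a lower mean was 34 or 35 under quantile normalization and median centring, and ran from 29 to 35 with 1 array left out.

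Other carriers that can take up choline had the lowest median of the 8 lists, at -0.38 over 5 measured genes. SLC22A5, the carnitine transporter, was at 8.01 and 7.84 with NS and at 7.59 and 7.40 with p53si-1 (difference -0.44, standard error 0.11, adjusted p = 0.198 from limma). FLVCR2, of a family of choline and haem carriers, was at 5.98 and 6.03 with NS and at 5.68 and 5.48 with p53si-1 (difference -0.42, standard error 0.10, adjusted p = 0.185 from limma). In both, the p53si-1 arrays were the lower ones without overlap, as they were in SLC22A4 (difference -0.38), and none of the 3 was called. The groups did not overlap for 42.5% of all genes. SLC22A2, also on this list, was at -0.17 (standard error 0.15) with overlapping arrays. FLVCR1, the close relative of FLVCR2, was at 0.03, with overlapping arrays.

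Diacylglycerol is the other substrate of CHPT1 and CEPT1. In the list of its supply, all 5 measured genes had a lower mean, beside 52.6% of all genes, and none was called. The phosphatidic acid phosphatase LPIN1 was at -0.45 (standard error 0.12) and the acyltransferase GPAM at -0.31 (standard error 0.09). The arrays of AGPAT2, LPIN2 and LPIN3 overlapped, with differences of -0.08, -0.03 and -0.10. In the parallel ethanolamine branch, the kinases ETNK1 and ETNK2 were at -0.35 (standard error 0.08) and -0.34 (standard error 0.24). The replicates of ETNK2 were far apart, at 7.58 and 6.99 with NS and 7.22 and 6.68 with p53si-1, so its groups overlapped. PCYT1B, the paralog of PCYT1A, was at -0.06. Of the genes that remodel phosphatidylcholine, LPCAT4 and LPCAT1 were at -0.24 and -0.06. In the list of phosphatidylcholine and sphingomyelin turnover, the phospholipase PLD1 was at -0.48 (standard error 0.20). Its replicates were 0.44 (NS) and 0.48 (p53si-1) apart, and the nearest arrays of the groups differed by only -0.015. The lysophospholipase ENPP2 was at -0.30 (standard error 0.09) and dim, at percentile 9.91 of all genes. The methyltransferases BHMT and BHMT2 of choline oxidation were at 0.13 and 0.11. CHAT, which makes acetylcholine, and BCHE, which breaks it down, were at -0.22 and -0.08. By mean signal BCHE stood at percentile 0.152 of all genes, BHMT at 19.5 and CHAT at 28.3, so these 3 were dim. None of these genes was called.

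**Figure D3:**
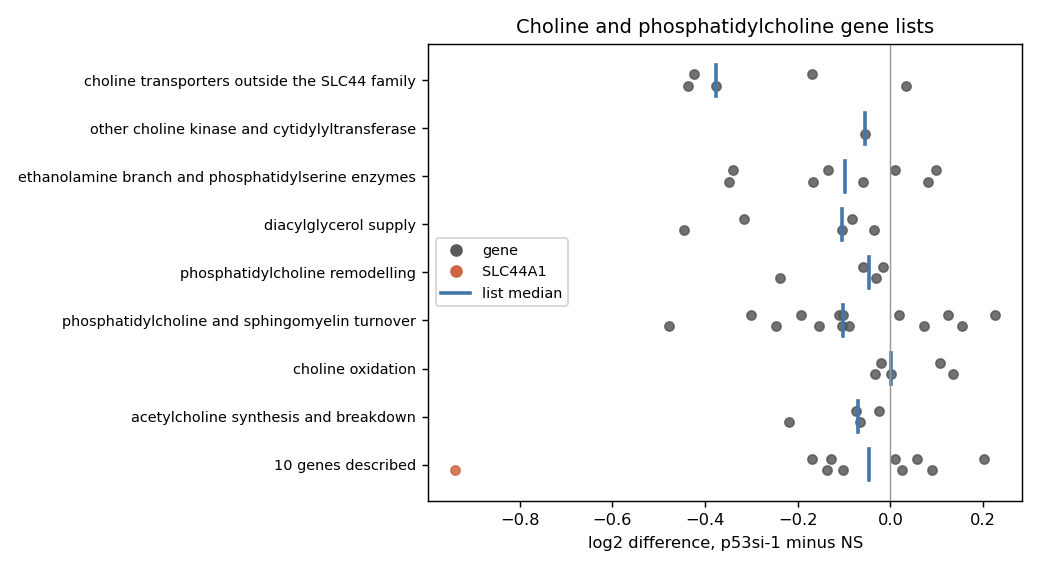
Difference, p53si-1 minus NS, on the log2 scale (x axis) of each of the 46 measured genes in 8 functional lists and of the 10 genes described (y axis). Circles are genes, the coloured circle is SLC44A1 and vertical bars mark the median of each list, from -0.38 for the other choline carriers to 0.0011 for choline oxidation.

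The genes whose pattern over the 4 arrays lay closest to that of SLC44A1 were FERMT2, TWSG1, CDV3, SCML1 and ZDHHC16. Closeness was the root mean square difference between the genes' log2 signals, each taken as the deviation from the gene's own mean, and it ran from 0.03 to 0.06 for these 5 genes. Among the other 9 of the 10 genes described, the closest was CEPT1 at 0.39, and the farthest was CHPT1 at 0.57. FERMT2, a kindlin that binds integrins at focal adhesions, was at 8.20 and 8.34 with NS and at 7.33 and 7.42 with p53si-1. TWSG1, an extracellular protein that binds bone morphogenetic proteins, was at 10.19 and 10.31 with NS and at 9.34 and 9.40 with p53si-1. In both genes, as in SLC44A1, NS replicate 2 was the highest array and p53si-1 replicate 1 the lowest. The differences of the 5 genes lay between -0.99 and -0.85. Their likeness to SLC44A1 fixes this direction, and 4 points per gene cannot tell genes that vary together from genes that are merely lower in the same group.

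**Figure D4:**
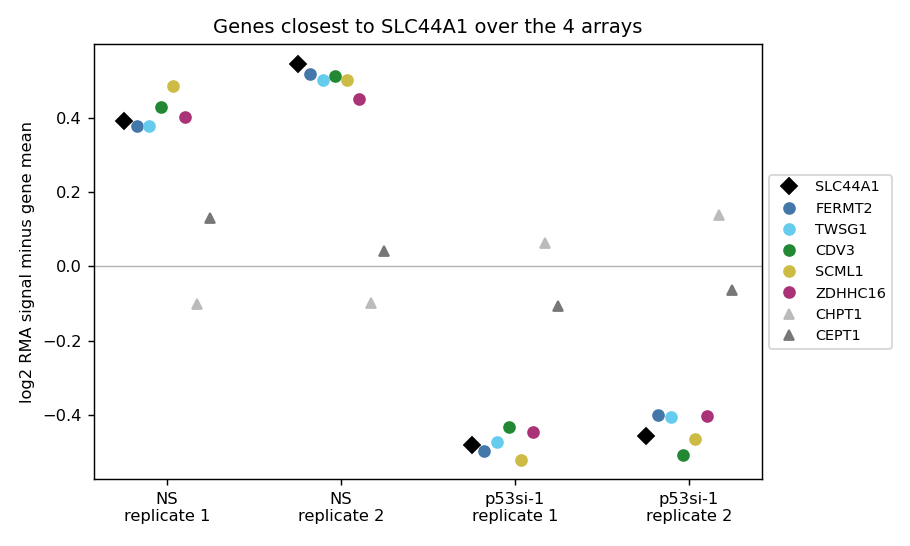
Log2 RMA signal minus each gene's own mean (y axis) on the 4 arrays (x axis). The diamond is SLC44A1, circles are the 5 genes closest to it and triangles are CHPT1 and CEPT1. The 5 genes follow SLC44A1 from above 0 on the NS arrays to below 0 on the p53si-1 arrays, while CHPT1 goes the other way.

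The arrays had nearly equal medians, from 5.66 to 5.69 over all transcript clusters. The epithelial and basal-like markers EPCAM, KRT8, KRT18, KRT19, KRT5 and EGFR stood at percentiles 93.2 to 99.7 of all genes, and 0 of the 6 were called. The log2 of their summed signal was 14.28 to 14.45 with NS and 14.33 to 14.48 with p53si-1. The basal keratin KRT5 had the widest difference among the markers, at 10.36 and 10.12 with NS and 9.85 and 9.80 with p53si-1 (-0.41 on the log2 scale), which lies outside the middle 95% of all genes. Of the leukocyte, fibroblast and endothelial markers, 8 of 10 measured genes were below the median of all genes, the exceptions being CD14 and COL1A1, and 0 of the 10 were called. The log2 of the summed leukocyte marker signal was 9.75 to 9.95 with NS and 9.72 to 9.85 with p53si-1, nearly all of it from CD14. That of the fibroblast markers was 7.91 to 7.95 and 7.74 to 7.87, and that of the endothelial markers 6.01 to 6.23 and 6.03 to 6.06. The part of these shifts in the values above was not tested.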

How the data were processed

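RNA of 4 cultures was measured on Human Gene 1.0 ST arrays from Affymetrix. The authors deposited log2 RMA signals for 33297 transcript clusters, and the submitters' processing notes list RMA, the Affymetrix Expression Console and GCOS. The log2 scale was judged from the range of the values. The RMA settings were not given in the sources used here. This method equalizes the arrays, so a shift of most transcripts is removed, and it can understate differences of dim genes.

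Clusters with 1 symbol (19460) were kept, and each gene was represented by its brightest cluster. Group means were compared by lmFit and eBayes of limma 3.58.1, run in R 4.3.3 (the residual degrees of freedom were 2 and those of the prior 4.202). The p-values were adjusted by the Benjamini-Hochberg method across the 18417 genes. The steps were tested on simulated data. Exact permutation of 2 against 2 arrays cannot give a two-sided p under 0.333. The number of arrays limits the precision, and the p-values measure the spread between arrays that a legend of the study describes as independent experiments.

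The genes, lists and rules were chosen with earlier results of these data known. Named were the 10 genes, up to 2 genes per list with the largest difference, and the 5 genes closest to SLC44A1 in pattern. SLC22A2, SLC22A4, FLVCR1, AGPAT2, LPIN2 and LPIN3 were added after their values were seen. Of the 53 list genes, 7 are not analysed here. Promoter windows and gene positions came from RefSeq (GRCh38.p14). Alternatives changed the cluster rule, the filter on dim genes, the scaling, the prior variance, the block, the threshold and the arrays used.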

Additional observations from a re-analysis of the deposited data

How the results depend on the processing

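The difference of SLC44A1 was -0.95 under quantile normalization, -0.93 under median centring and -1.01 to -0.86 without 1 array. The other alternatives cannot move the group means of a gene with 1 cluster. SLC44A1 was called by limma in 5 of the 11. It was the only one of the 10 genes called under any of them. The number of the 10 genes called was 0 with every cluster as its own feature, 0 with the replicate number as a block, and 0 without any 1 array (range 0 to 0). The sources do not settle whether same-numbered arrays came from a shared experiment, and such arrays deviated together over all genes (correlation 0.24). Of all genes, 20 were called (6 rose, 14 fell). This number was 4 with every cluster as its own feature, 12 with the replicate block, 62 with median centring (50 fell), 100 without genes under a mean log2 signal of 5, 149 with a trended prior variance, 177 at an adjusted p under 0.1, and 0 to 1 without 1 array. The 170 genes over 1.5-fold became 199 to 295 without 1 array, the most without p53si-1 replicate 1. Of the 46 list genes, 0 were called under any alternative, and 0 to 2 exceeded 1.5-fold without 1 array. The counts among the 10 genes, and that of list genes over 1.5-fold, were added to the alternatives after the data were seen. SLC44A5 and SLC5A7 have no value once dim genes are left out. The causes of these changes were not tested. With 2 arrays per group the call over all genes was strict, since FERMT2 at -0.90 (standard error 0.09) was not called. Differences of bright genes could thus be missed, as could those of the dim SLC44A5 and SLC5A7, even beyond the width of their intervals.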
